A study of Mus musculus with 5 samples.

Results

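The cells described here are endothelial cells (ECs) of the mouse temporomandibular joint (TMJ) disc that carried transcripts of Selp, the gene of P-selectin. A cell was taken as an EC when at least 3 of the 6 genes Pecam1, Cdh5, Emcn, Flt1, Egfl7 and Ptprb had a UMI (unique molecular identifier, 1 counted RNA molecule), when no UMI of the myeloid gene Tyrobp was present and when mitochondrial genes made up at most 30% of its UMIs, and the members were then selected on at least 1 UMI of Selp. This gave 777 Selp+ ECs of 3166 ECs, among 51688 cells within the mitochondrial limit and 51948 barcodes in all. The other 2389 ECs are the comparison used throughout and are called other ECs.

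The series holds 5 droplet libraries of dissected discs, 1 for each condition: newborn mice at 3 d, juveniles at 3 w, adults at 16 w, aged mice at 78 w, and an injured disc. For the library labelled 78 w the file name points to another age; the label was followed. The labels give C57BL/6 and WT for all of them. The injured disc came from mice whose disc was injured with needles at 5 weeks (pinched in the words of the labels, punctured in those of the methods) and collected 2 weeks later, at 7 weeks of age. The methods describe disc injury in tamoxifen-treated Myh11-CreER; Tm fl/- mice, in which Cre under the smooth muscle Myh11 promoter switches on tdTomato in mural cells. For lineage tracing with this genotype the methods name males only. Pups of both sexes went into a single suspension at 3 d, mice at 3 w, 16 w and 78 w were male, the sex of the injured mice is not given for this library, and how many animals entered each library is not given in the sources used here. Selp+ ECs numbered 75, 215, 184, 246 and 57 in the 3 d, 3 w, 16 w, 78 w and injured libraries, an order kept for every series of 5 values in the text. Their median depth was 9786, 6280, 7167, 6299.5 and 2501 UMIs, against 6270, 5669, 4938, 4492 and 2223 in other ECs, and their summed depth was 973378, 1750277, 1583179, 1810575 and 169060 UMIs. Whole libraries held 125130270, 125427849, 88998394, 105309834 and 31585993 UMIs, so the injured library was the shallowest and its Selp+ ECs were also the fewest. With 1 library per condition no difference had a replicate check and no test was made. Intervals are exact 95% intervals of the counts and cover counting error only.

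ECs differ along the vascular tree. Those of postcapillary venules are where leukocytes leave the blood: selectins on the venular surface catch passing leukocytes, integrin ligands such as ICAM1 and VCAM1 hold them, and chemokines presented on the surface trigger firm arrest. P-selectin is kept ready in Weibel-Palade bodies together with von Willebrand factor and is moved to the surface within minutes, whereas E-selectin is made after stimulation by inflammatory cytokines, largely through NF-kB. The TMJ disc is mostly avascular, with vessels near its attachments.

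Selp lies on chromosome 1 at chr1:164115264-164150026, plus strand, and the E-selectin gene Sele lies on the same strand at chr1:164048234-164057677, 57.6 kb upstream of it (GRCm38, GENCODE M21 gene models). Icam1 is on chromosome 9 at chr9:21015985-21028817, plus strand. The 250 bases that precede the RefSeq transcript starts of these 3 adhesion genes are shown because Sele and Icam1 were the 2 adhesion molecules at least 2-fold higher in Selp+ ECs in every library. They lie at chr1:164115014-164115263, chr1:164047984-164048233 and chr9:21015690-21015939 (RefSeq, GRCm38.p6, plus strand). Capitals mark matches on either strand to a loose spelling of the NF-kB motif, 3 G, then any 5 bases, then 2 C.
Selp: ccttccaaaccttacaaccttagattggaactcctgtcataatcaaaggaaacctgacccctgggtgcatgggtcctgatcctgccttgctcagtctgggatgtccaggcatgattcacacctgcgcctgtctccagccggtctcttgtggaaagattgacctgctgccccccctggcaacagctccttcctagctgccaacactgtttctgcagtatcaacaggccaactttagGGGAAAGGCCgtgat
Sele: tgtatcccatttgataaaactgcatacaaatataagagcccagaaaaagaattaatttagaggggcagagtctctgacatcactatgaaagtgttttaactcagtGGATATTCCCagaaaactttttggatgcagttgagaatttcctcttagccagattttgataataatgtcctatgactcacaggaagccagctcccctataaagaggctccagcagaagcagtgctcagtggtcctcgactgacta
Icam1: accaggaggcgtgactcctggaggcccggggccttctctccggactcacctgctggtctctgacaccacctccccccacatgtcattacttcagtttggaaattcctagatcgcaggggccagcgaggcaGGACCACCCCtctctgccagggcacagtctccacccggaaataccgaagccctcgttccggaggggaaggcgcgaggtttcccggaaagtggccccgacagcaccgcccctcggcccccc
The matches start 15 bases before the start of Selp, 145 before that of Sele and 120 before that of Icam1. The same window of Ackr1, a venular gene described below, holds no match. The motif is common: 45.8% of 32851 promoters of this length hold it. Counted by gene, 13148 of 27025 genes hold it in at least 1 promoter. So do 9 of the 12 genes higher in Selp+ ECs that have a listed promoter and 9 of the 11 lower in them (both sets defined below). A match is a stretch of letters and says nothing of binding.

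Selp itself was scarce in newborn ECs and abundant from 3 w on. Over all ECs its level was 29.5, 1574, 642, 1242 and 575 CPM (UMIs of the gene per 1000000 UMIs of the class). Its counting interval at 3 d was 25.9 to 33.4 CPM, and the lowest of the later libraries, the injured one, had 524 to 629 CPM. The share of ECs with a Selp UMI was 8.16, 28.5, 32.3, 37.7 and 21.1%, and with every cell thinned to 1000 UMIs it was 2.94, 24.0, 19.9, 29.3 and 17.1%. Thinning left out 34, 6, 6, 11 and 25 shallower ECs. The exact Clopper-Pearson intervals of the thinned shares were, in percent, [1.93, 4.28], [21.0, 27.3], [16.6, 23.4], [25.8, 33.0] and [12.6, 22.5]. The 3 d share lay below all others, the 78 w share lay above those of 16 w and the injured library, and the intervals of neighbours in the order injured, 16 w and 3 w overlapped. The rule fixes that every member has Selp, and these shares describe where the rule found cells. Cells with none of the 6 endothelial genes were the comparison for free RNA, although they also express genes of their own. Of them, 0.0687, 0.738, 0.882, 1.30 and 0.569% had a Selp UMI at median depths of 7488, 12724, 9277, 9582 and 3350 UMIs, and thinned to 1000 UMIs 0.00950, 0.0399, 0.0684, 0.0956 and 0.186% did.

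**Figure D1:**
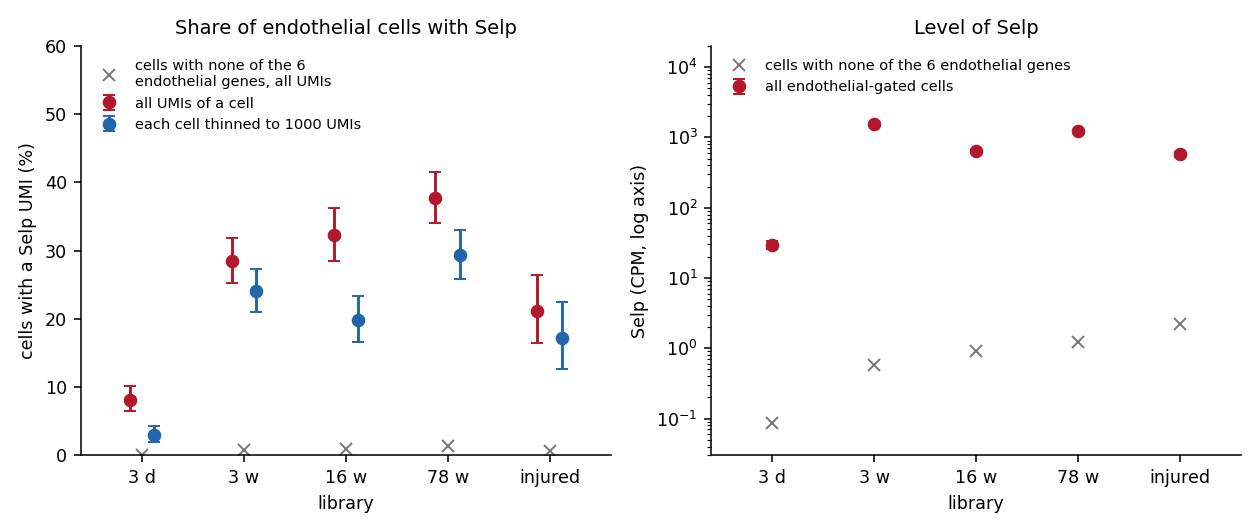
Left: percent of ECs with at least 1 Selp UMI in each of the 5 libraries, with all UMIs (red) and with every cell thinned to 1000 UMIs (blue), with exact 95% binomial intervals, and the percent of cells with none of the 6 endothelial genes (grey crosses). Right: Selp in CPM on a log axis over all ECs (red, exact Poisson intervals, mostly smaller than the points) and in cells with none of the endothelial genes (grey crosses); Selp in ECs was lowest at 3 d and 575 CPM or higher in the other libraries.

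Members also differed in how much Selp they held. The median member had 1, 34, 5.5, 13 and 5 Selp UMIs and the highest had 44, 254, 159, 136 and 39, and the tenth of members with the most Selp held 54.3% of all Selp UMIs at 3 d and 29.0% at 3 w. Of the 777 members, 125 had 1 Selp UMI, 64 had 2 and 588 had 3 or more, and 42 of the 75 members at 3 d were cells with 1 UMI. On the other side of that threshold stood the 2389 other ECs. By the number of endothelial genes, 31 members sat at the limit of 3 and 538 had all 6, while 25 cells with Selp had only 2 and 59 only 1. Of these, 15 and 25 belonged to the injured library, where cells are shallow; they held Selp at 1190 and 1230 CPM, Sele at 284 and 256 CPM and Ackr1 at 266 and 336 CPM. A further 7 cells with Selp were set aside for Tyrobp and none for mitochondrial genes. No barcode of a member recurred among the members of another library, although 275 barcodes were shared over the 10 pairs of whole libraries.

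The venular label was set against genes that the rule did not name, although all genes come from the cells that were divided by Selp, so what follows is description. The gene lists were also chosen with earlier results of these data known. Counted within each library, 20 of 10885 genes were at least 2-fold higher in Selp+ ECs than in other ECs in 5 of 5 libraries (0.184%) and 12 were at least 2-fold lower (0.11%). Without 3 d the counts were 58 and 44. With equal weight per cell, where counts under 3 UMIs were also not raised to 3, they were 34 and 68, so that the balance of directions turned. The parts of the weighting and of the missing floor in this were not separated. Of 26 venous and venular markers, 6 were among the higher and none among the lower. Without regard to size, 16 were higher and 1 lower in all 5 libraries. Over all 10885 genes 519 were higher (4.77%) and 1171 lower (10.8%) in all 5 libraries in that sense, the background for each count by direction that follows. The median ratio of that list was 1.51, 2.46, 1.84, 2.28 and 1.99, beside 0.919, 0.883, 0.944, 0.903 and 1.00 over all genes. The 6 genes were Sele, Ackr1, Icam1, Vwf, Tll1 and Csf2rb, the gene of a shared cytokine receptor chain, the last at 63.7, 165, 153, 197 and 118 CPM against 29.9, 51.5, 33.3, 38.4 and 27.8 CPM. Tll1 had 3 UMIs at 3 d, where its ratio was 3.20 (95% interval 0.534 to 14.0).

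Sele, the E-selectin gene, stood at 242, 2077, 803, 898 and 999.6 CPM in Selp+ ECs and at 38.1, 36.7, 52.3, 36.2 and 35.5 CPM in other ECs. The lowest Selp+ value, at 3 d, lay above every value of other ECs, and the ratio ran from 6.36 (95% interval 5.32 to 7.59) at 3 d to 56.7 (95% interval 48.3 to 66.9) at 3 w. Ackr1, the atypical chemokine receptor that carries chemokines across venules, stood at 8.22, 470.2, 404, 548 and 709.8 CPM, against 3.58, 3.48, 44.8, 23.8 and 12.4 CPM. At 3 d its 8 UMIs gave a ratio of 2.30 (95% interval 0.899 to 5.23). That interval includes 1, so that a difference was not detectable at this depth. From 3 w on every Selp+ value exceeded every value of other ECs. Vwf, the gene of von Willebrand factor, stood at 80.1, 375, 505, 521 and 379 CPM against 28.8, 30.6, 125, 129 and 47.9 CPM, with ratios of 2.79 to 12.2; at 3 d, where the ratio was lowest, 3 of the 75 members held 62.8% of its 78 UMIs.

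Icam1 and Vcam1 encode integrin ligands. Icam1 reached 297, 1865, 1382, 1295 and 1129.8 CPM in Selp+ ECs and 75.4, 510.2, 271, 337 and 345 CPM in other ECs. The ratios were 3.28 to 5.09. Cells with none of the endothelial genes held 38.1, 229.6, 219, 175 and 42.4 CPM, near the level of other ECs at 16 w, where 51.6% of these cells and 41.2% of other ECs had an Icam1 UMI (16.0% and 17.6% after thinning). Vcam1 stood at 50.3, 1100.4, 301, 349 and 739 CPM against 31.4, 83.8, 66.2, 69.7 and 357 CPM; it was nearest to other ECs at 3 d, at a ratio of 1.60 (95% interval 1.15 to 2.19), and after injury, at 2.07 (95% interval 1.65 to 2.59), where other ECs also held 357 CPM. At 3 d Vcam1 in Selp+ ECs did not stand above cells with none of the endothelial genes, which held 51.4 CPM. Of the 19 leukocyte adhesion molecules compared, Sele and Icam1 were at least 2-fold higher in every library and none was at least 2-fold lower. In direction alone 3 were higher and 6 lower in 5 of 5 libraries, and the median ratio of the list was 0.970. The junctional and constitutive members did not share this: Cd9 ran at 632 to 2147 CPM against 643 to 2069, Cd47 at 257 to 431 against 239 to 466, and Podxl, a sialomucin of the luminal surface, at 65.1 to 129 against 176 to 506.

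**Figure D2:**
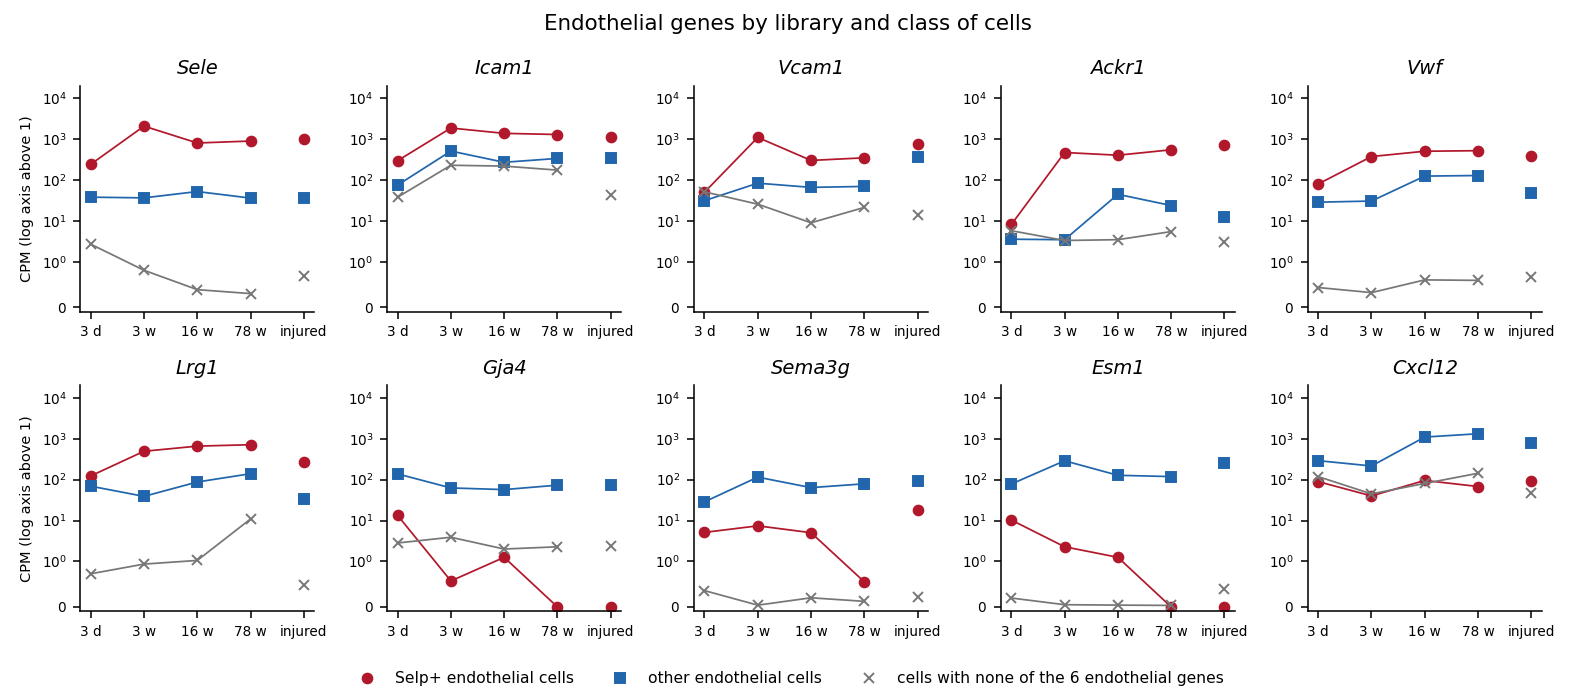
CPM (linear below 1, log above) of 10 genes in each library for Selp+ ECs (red circles), other ECs (blue squares) and cells with none of the 6 endothelial genes (grey crosses); lines join the 4 ages, points are single libraries and no error bars are drawn. Sele, Icam1, Vcam1, Ackr1, Vwf and Lrg1 lie higher in Selp+ ECs, with the classes nearest to each other at 3 d for all of these but Icam1, and Gja4, Sema3g, Esm1 and Cxcl12 lie higher in other ECs.

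Secreted factors and cytokine receptors followed the same direction for a few genes. Csf3, the granulocyte colony-stimulating factor gene, stood at 33.9, 187, 83.4, 144 and 231 CPM against 0.963, 17.2, 1.19, 3.97 and 23.2 CPM. At 3 d 6 of the 75 members held its 33 UMIs, 16 of them in a single cell. The 3 highest cells held 50.8% of its 132 UMIs at 16 w and 61.5% of its 39 UMIs after injury. Neurl3, an E3 ubiquitin ligase gene, stood at 32.9, 291, 148, 177 and 101 CPM against 5.37, 29.7, 16.6, 30.5 and 15.5 CPM. Receptors for inflammatory cytokines included Il1r1, an interleukin receptor, at 32.9, 208, 141, 137 and 166 CPM against 21.3, 36.7, 63.0, 54.7 and 32.4 CPM. Il6st, the shared signalling receptor of an interleukin family, stood at 154, 924, 1259, 1046 and 586 CPM against 87.7, 253, 469.9, 384 and 127 CPM. Of 21 receptors for inflammatory mediators, 1 was at least 2-fold higher in 5 of 5 libraries, the leukotriene receptor Cysltr1, at 7.19, 21.1, 53.1, 38.1 and 17.7 CPM against 1.10, 0.464, 11.5, 6.62 and 1.55 CPM. Its ratio after injury rests on 3 UMIs against 1 and was 3.83 (95% interval 0.922 to 603) with the floor of 3 UMIs, and at 3 d it rests on 7 UMIs against 8. The other genes among the 15 ranked highest by their ratio nearest to 1 were Tnfrsf11a, Tll1, Mir155hg, Rasgef1a, Cmah, Plekha7, Amigo2 and Wipf3, all at or below 91.0 CPM. After injury Cmah and Amigo2 had 2 UMIs each against 1 in other ECs and Plekha7 4 against 2, so that their place among these genes rests on the floor or on few UMIs.

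Among 16 NF-kB targets and feedback genes, Nfkbiz was at least 2-fold higher in every library, at 126, 439.9, 387, 345 and 177 CPM against 58.1, 151, 153, 162 and 69.5 CPM. Of the 16, 6 were higher in direction in all 5 libraries, and the median ratio was 1.43. Nfkbia, the gene of the main NF-kB inhibitor, was abundant in both classes, at 1091, 3056, 2564, 2651 and 2041 CPM against 493, 2251, 1807, 2458 and 1995 CPM. Of 15 chemokines and cytokines, Csf3 and Ackr1, a chemokine receptor listed with them, had ratios of at least 2 in every library, that of Ackr1 at 3 d with the interval given above, and Cxcl12 was at least 2-fold lower. Cxcl1, a neutrophil-attracting chemokine, stood at 433, 1443, 392, 460.1 and 1201 CPM against 359, 885, 136, 293 and 388 CPM, higher in all libraries and by more than 2-fold at 16 w and after injury.

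Genes whose detection was most like that of Selp were ranked by the ratio of the share of thinned Selp+ ECs to the share of thinned other ECs with a UMI, averaged over the 5 libraries, among 1336 genes found on average in at least 10% of thinned Selp+ ECs. The 8 leading genes were Ackr1, Sele, Mctp1, Neurl3, Vwf, Vcam1, Lrg1 and Lbp. Ackr1 was found in 4.00, 26.0, 29.3, 36.5 and 45.3% of Selp+ ECs and in 0.247, 0.562, 2.89, 1.26 and 1.04% of other ECs. Sele was found in 26.7, 70.2, 41.8, 45.9 and 50.9% and 3.83, 3.93, 3.42, 3.02 and 3.65%. Lrg1, a secreted leucine-rich glycoprotein gene, was found in 9.33, 38.1, 44.0, 41.8 and 26.4% and 8.89, 4.12, 9.21, 9.57 and 4.17%. Lbp, the gene of the lipopolysaccharide-binding protein, was found in 9.33, 31.2, 24.5, 22.1 and 13.2% and 2.22, 7.12, 3.68, 4.28 and 2.60%. Of thinned cells with none of the endothelial genes, 0.295% or fewer had Sele and 0.693% or fewer had Ackr1 in any library. At 3 d the shares of these 4 genes in Selp+ ECs were the lowest of the 5 libraries, and that of Lrg1 was near that of other ECs.

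Detection of these genes differed between members, and a thinned member without a UMI of a gene may still express it. At 1000 UMIs per cell, Sele without Ackr1 was seen in 19, 106, 51, 72 and 9 members, Ackr1 without Sele in 2, 11, 28, 49 and 6, both in 1, 45, 26, 40 and 18, and neither in 53, 53, 79, 83 and 20. Cells with Sele alone outnumbered those with Ackr1 alone in all 5 libraries. Sele also stood at the higher CPM in all 5 libraries, and these counts cannot show whether members differed beyond detection. At least 1 of Sele, Ackr1 and Vwf was seen in 37.3% of members at 3 d and in 80.5, 72.3, 77.5 and 66.0% of members in the other libraries, so that the newborn members carried the venular genes least often.

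Arterial genes were low. None of 22 arterial markers was at least 2-fold higher in every library, 5 were at least 2-fold lower in every library, and 18 were lower in direction in 5 of 5. Their median ratio was 0.542, 0.286, 0.397, 0.278 and 0.519. Gja4, an arterial gap junction gene, stood at 13.4, 0.571, 1.26, 0 and 0 CPM in Selp+ ECs and 138, 62.6, 57.0, 73.3 and 72.6 CPM in other ECs. At 78 w and after injury no UMI was seen, where 3 UMIs would be 1.66 and 17.7 CPM. Sema3g, an arterial semaphorin, stood at 5.14, 7.43, 5.05, 0.552 and 17.7 CPM against 28.6, 115, 63.8, 79.0 and 94.3 CPM. Cxcl12 stood at 89.4, 40.0, 95.4, 67.9 and 94.6 CPM against 291, 216, 1097, 1321 and 805 CPM, and the gap was widest at 78 w, at a ratio of 0.0514 (95% interval 0.0426 to 0.0616). Not all arterial markers were low: Tm4sf1, a surface protein gene of activated endothelium, was higher from 3 w on, at 1158, 4167, 1397, 2483 and 2348 CPM against 1347, 2253, 1188, 1481 and 1456 CPM. Its level was lower than in other ECs at 3 d. The remaining genes named by rank as lower were Sema7a, Atp2a3, Cgnl1, St8sia6, AW112010, Ptprr and Bmx, each at least 2-fold lower in 5 of 5 libraries, and Cxcr4, Notch4 and Ptp4a3, which missed that in at least 1 library.

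Tip cell and Notch genes were low as well. Esm1, the endocan gene of angiogenic tip cells, stood at 10.3, 2.29, 1.26, 0 and 0 CPM against 78.2, 289, 128, 119 and 255 CPM. Of 12 tip cell and angiogenic genes 1, Esm1, was at least 2-fold lower in every library, 7 were lower in direction in all 5 and none was higher in direction in all 5, beside 10.8% of all genes lower. Of 10 Notch pathway genes 6 were lower in direction in all 5 libraries, beside 10.8% of all genes, among them the target gene Hey1 at 11.3, 4.57, 7.58, 8.28 and 0 CPM against 38.7, 74.9, 51.1, 53.0 and 38.6 CPM, and the median ratio was 0.492. Cldn5, the main claudin gene of tight junctions, stood at 150.0, 21.7, 19.6, 1.66 and 23.7 CPM against 276, 665, 191, 316 and 151 CPM and showed its largest gap at 78 w, with 3 UMIs and a ratio of 0.00520 (95% interval 0.00110 to 0.0154).

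Capillary genes as a list were near the level of other ECs at 3 d and lower at 3 w, 16 w and 78 w. Of 18 capillary markers none was at least 2-fold higher or lower in every library. At 3 d 8 were higher and 9 lower in Selp+ ECs, with a median ratio of 0.998. At each of the 3 later ages 14 were lower, and the median ratio was 0.527, 0.517 and 0.480. Over all 10885 genes, the 5 libraries had 6868, 7152, 6334, 6633 and 3273 lower in Selp+ ECs. Those higher numbered 3776, 3576, 4385, 4091 and 4319, so that most genes were lower at every age. After injury 11 capillary markers were lower and 4 higher, 2 of each by at least 2-fold, with a median of 0.893. The floor of 3 UMIs was 17.7 CPM in those members, which sets the ratios of several low genes at or near 1. Gpihbp1, which anchors lipoprotein lipase to capillary ECs, stood at 528, 32.6, 8.84, 7.18 and 17.7 CPM against 721, 169, 131, 165 and 64.9 CPM, with a ratio after injury of 0.273 (95% interval 0.0542 to 0.856). In newborn Selp+ ECs it was thus nearer to the level of other ECs than in the later libraries. Cd36, a fatty acid receptor gene, stood at 459, 242, 102, 129 and 41.4 CPM against 289, 283, 284, 315 and 47.9 CPM, higher in Selp+ ECs at 3 d and lower at 3 w, 16 w and 78 w. Fabp4, a fatty acid binding protein gene found in capillary and venous ECs, was higher in Selp+ ECs in all 5 libraries, at 4150.5, 3406, 3209, 3718 and 2756 CPM against 3418, 1902, 1709, 2652 and 895 CPM.

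Thus the label of venular ECs was met by Sele, Ackr1, Vwf and low arterial genes in the 3 w, 16 w, 78 w and injured libraries. Not every venous marker set the classes apart so clearly, and Ephb4 differed less. Of thinned Selp+ ECs 5.33, 4.19, 14.1, 9.43 and 7.55% had Ephb4, against 7.28, 3.75, 10.5, 9.07 and 6.25% of other ECs. Nr2f2 was higher in every library, at 14.7, 17.2, 14.1, 15.2 and 28.3% against 8.77, 5.62, 7.11, 9.32 and 18.2%. At 3 d the label was met by Sele, Icam1 and low arterial genes. However, Ackr1 there was near the level of cells without endothelial genes (8.22 against 5.77 CPM) and capillary genes were at the level of other ECs. The newborn cells are for that reason called Selp+ ECs and not venular. Pecam1 and Cdh5, part of the rule, were 526 to 893 and 460.5 to 680.1 CPM in members.

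**Figure D3:**
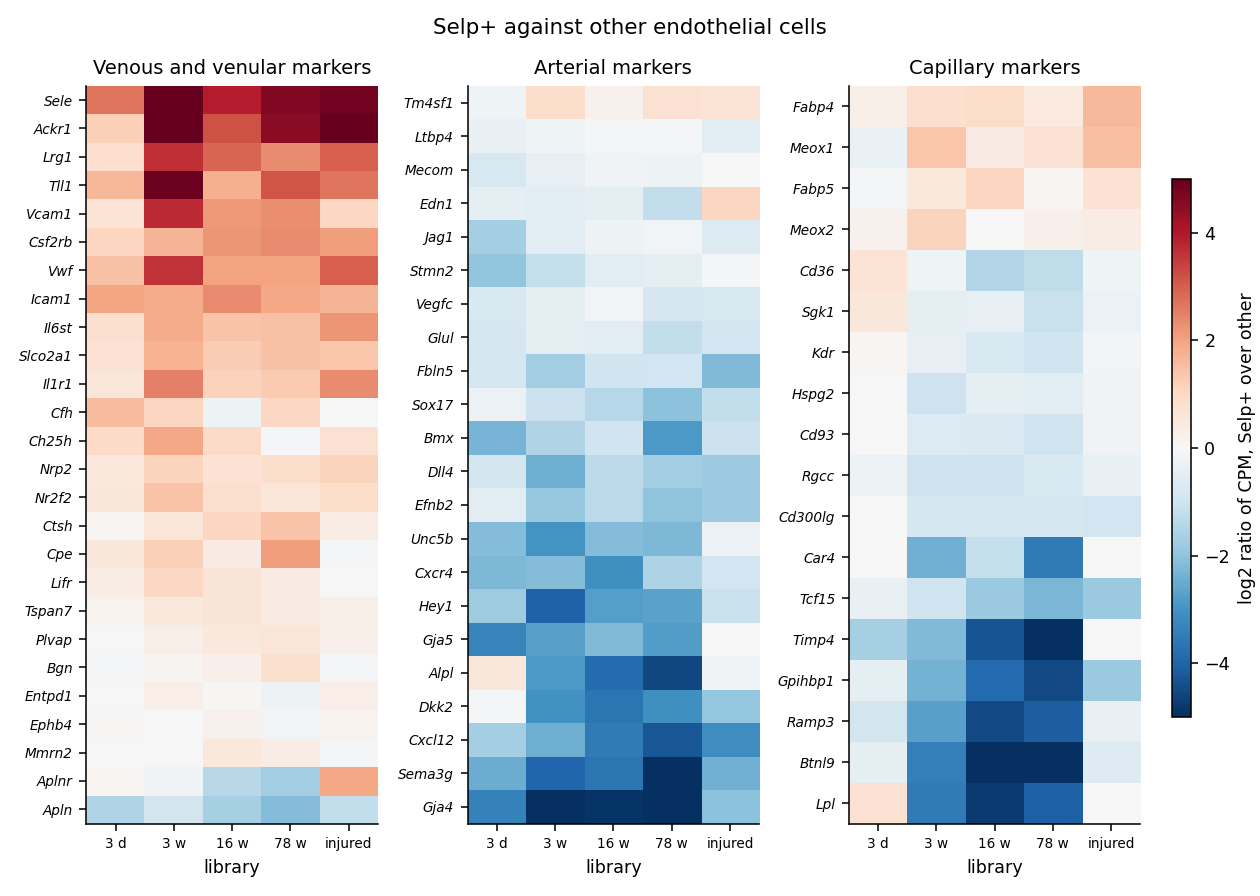
Log2 ratio of CPM in Selp+ ECs over other ECs (colour; the scale ends at 5 on either side of 0) for venous and venular, arterial and capillary markers (rows) in the 5 libraries (columns); ratios use a floor of 3 UMIs on the smaller side, so that white also covers genes with too few UMIs. Most venous rows are red and most arterial rows blue, and among the capillary rows Gpihbp1, Btnl9, Lpl, Ramp3 and Timp4 are blue at the 3 later ages.

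The comparison of neighbouring ages within Selp+ ECs asked how these cells changed during growth and aging. The step from 3 d to 3 w was the largest: of 5477 genes, 1187 were at least 2-fold higher at 3 w (21.7%) and 940 at least 2-fold lower (17.2%). Of these, 445 and 137 also stood at least 2 times above the cells with none of the endothelial genes in the library where they were higher. With genes of an expected count of at least 5 included the balance turned, to 1822 higher and 2215 lower. The counts were 689 and 320 without cells of high UMIs and 172 and 59 after thinning, and with at least 2 Selp UMIs per member 371 genes were lower. Of 24 venous and venular markers, 16 were at least 2-fold higher at 3 w and 1 lower, with a median ratio of 3.08, while in other ECs 8 were higher and 1 lower, with a median of 1.34. Over all 5477 genes, 1108 were at least 2-fold higher and 801 lower in other ECs. Sele changed by a ratio of 8.57 (95% interval 7.51 to 9.82), against 0.962 in other ECs, Vcam1 by 21.9 (95% interval 16.5 to 29.7) against 2.67, and Ackr1 by 57.2 (95% interval 28.9 to 133) against 0.973. With at least 2 Selp UMIs per member the Vcam1 ratio was 13.6 and the Ackr1 ratio 55.3. In the step from 3 d to 3 w the 3 d members were also the cells with the fewest Selp UMIs. The 20 members of 3 d with 3 or more Selp UMIs (821 CPM) held Sele, Vcam1 and Ackr1 at 493, 113 and 14.1 CPM. The 9 members of 3 w with 1 Selp UMI (120 CPM) held them at 294, 950 and 80.3 CPM. The 12 members of 3 w with 2 Selp UMIs (466 CPM) held 2096, 563 and 388 CPM. The part of the Selp level in the age differences was not tested.

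Of 15 NF-kB targets and feedback genes 14 were at least 2-fold higher in Selp+ ECs, with a median ratio of 3.48, and the medians in other ECs (3.12) and in cells without endothelial genes (3.50) were close to it. Of 19 immediate early and stress genes 9 were at least 2-fold higher in Selp+ ECs and 18 in other ECs, with medians of 1.97 and 4.13. The part of handling in this step was not tested. Of 13 genes of MHC class I and antigen processing 12 were at least 2-fold higher, with a median of 4.50 against 7.35 in other ECs. Hmox1, the heme oxygenase gene, changed by 57.9 (95% interval 40.5 to 85.9) against 44.5 in other ECs. Fmo2, a flavin monooxygenase gene, had 0 UMIs at 3 d and 696 CPM at 3 w, a ratio of 226 to the floor of 3 UMIs in the 3 d library, with a lower 95% bound of 183. That ratio was 107 with at least 2 Selp UMIs per member, 96.6 without cells of high UMIs and 20.6 after thinning, each against its own floor. Slc7a11, the cystine transporter gene, had 2 UMIs at 3 d and 263 CPM at 3 w; the guanylate-binding protein gene Gbp5 and Rab20, a small GTPase gene, had 3 UMIs each at 3 d and 105 and 69.7 CPM at 3 w. Ptgs2, the inducible cyclooxygenase gene, stood at 5.14 and 106 CPM, against 47.8 CPM at 3 w in cells without endothelial genes, and 20 of the 215 members at 3 w held it.

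Growth genes were lower at 3 w. Of 12 cell cycle genes 11 were at least 2-fold lower in Selp+ ECs and 11 in other ECs, with median ratios of 0.0878 and 0.0392. Top2a, a topoisomerase gene of dividing cells, stood at 149 CPM at 3 d, close to the 154 CPM of other ECs, and had 2 UMIs at 3 w. The imprinted fetal growth gene Mest stood at 809.6 and 9.14 CPM, a ratio of 0.0113 (95% interval 0.00640 to 0.0185). The other genes named by rank were 2810417H13Rik, Hist1h2ae, Tk1, Gmnn and Hist1h2ap, genes of DNA replication and histones, and Ccl21a, a lymphatic chemokine gene whose 103 UMIs at 3 d all came from 1 cell. Of 14 basement membrane genes 8 were at least 2-fold lower and 2 higher. Col4a1, a basement membrane collagen gene, stood at 3013, 494, 237, 224 and 958 CPM against 3247, 1558, 745, 683 and 1524 CPM in other ECs, so that the newborn classes were alike and the later ones were not.

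Between 3 w and 16 w fewer genes differed: 547 of 6879 were at least 2-fold higher at 16 w (7.95%) and 321 at least 2-fold lower (4.67%). Of these, 149 and 164 stood at least 2 times above the cells with none of the endothelial genes. With cells thinned to 1000 UMIs 77 genes were at least 2-fold higher and 141 lower, the opposite balance to 547 and 321. Of 22 interferon response genes 9 were lower and 1 was higher, at a median ratio of 0.724, while in other ECs 4 were lower and the median was 1.12. Over all 6879 genes, 355 were at least 2-fold higher and 365 lower in other ECs. Gbp2 changed by 0.0965 (95% interval 0.0769 to 0.120) against 0.144 in other ECs, and Iigp1 by 0.199 (95% interval 0.178 to 0.222) against 0.239. Of 13 chemokines and cytokines 7 were at least 2-fold lower, among them Cxcl1 at 0.272 (95% interval 0.248 to 0.297), Cxcl2 at 0.155 and Il6 at 0.159; in other ECs 6 of them were lower. Sele and Vcam1 were lower too, at 0.387 (95% interval 0.363 to 0.412) and 0.274 (95% interval 0.247 to 0.303), against 1.43 and 0.790 in other ECs. The 16 w members also had less Selp than those of 3 w, a median of 5.5 UMIs against 34. At 16 w the 36 members with 1 Selp UMI held Sele and Vcam1 at 411 and 165 CPM. The 131 members with 3 or more held them at 954 and 344 CPM. The part of the Selp level in this step was not tested.

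The genes named by rank at 16 w included F5, the coagulation factor V gene, at 12.2 (95% interval 5.30 to 34.3), and Sncg, a synuclein gene, at 49.1 and 272 CPM with a ratio of 5.53 (95% interval 4.38 to 7.05). L1cam, an adhesion molecule gene, Shtn1, 3222401L13Rik, Endou and Cmah were the others, at ratios of 5.13 to 9.73. Nos2, the inducible nitric oxide synthase gene, was also named, but 51 of its 52 UMIs at 16 w came from 1 cell; without cells of high UMI counts its ratio to 3 w was 0.903. Lower at 16 w were Cyp1b1, a cytochrome gene with 3 UMIs at 16 w and 97.7 CPM at 3 w, Slc7a11 at 0.0505 (95% interval 0.0309 to 0.0781), St8sia4, a polysialyltransferase gene, at 0.0570 (95% interval 0.0353 to 0.0874), and Cxcl10 at 0.0801 (95% interval 0.0482 to 0.126). Cxcl9, Cxcr4, Pgf and Pik3r5 had at most 4 UMIs at 16 w.

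From 16 w to 78 w Selp+ ECs differed least: 84 of 7030 genes were at least 2-fold higher at 78 w (1.19%) and 93 at least 2-fold lower (1.32%). Of these, 42 and 26 stood at least 2 times above the cells with none of the endothelial genes. After thinning 31 genes were at least 2-fold higher and 14 lower. Interferon response genes were again a list with many members past 2-fold, this time higher. Of 22 compared, 8 were at least 2-fold higher at 78 w and none lower, with a median ratio of 1.51, while in other ECs none of the 22 was at least 2-fold higher or lower and the median was 0.954. The 8 were Gbp2, Gbp4, Igtp, Irgm1, Iigp1, Ifit1, Rsad2 and Rtp4. Over all 7030 genes, 72 were at least 2-fold higher and 71 lower in other ECs.

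Iigp1, an interferon-inducible GTPase gene, stood at 75.0, 1224, 243, 918 and 432 CPM in Selp+ ECs and 22.2, 647, 155, 178 and 138 CPM in other ECs. Its ratio of 78 w to 16 w was 3.77 (95% interval 3.38 to 4.23) in Selp+ ECs and 1.15 in other ECs. Gbp4 stood at 28.8, 201, 67.6, 228 and 76.9 CPM against 11.4, 146, 77.7, 90.5 and 68.0 CPM. Igtp, another interferon-inducible GTPase gene, stood at 12.3, 131, 32.8, 142 and 71.0 CPM against 4.95, 74.7, 29.7, 45.0 and 34.0 CPM. For these 3 genes the 16 w level in Selp+ ECs lay below those of 3 w and 78 w. At 78 w the cell with the most Iigp1 held 3.13% of its UMIs and that with the most Gbp4 held 4.85%, so the difference was spread over many cells. Cells with none of the endothelial genes held at most 8.59 CPM of Iigp1.

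The list was not uniform. Rsad2, an antiviral gene, stood at 215, 33.1, 3.16, 37.0 and 35.5 CPM in Selp+ ECs and 39.2, 157, 133, 142 and 98.9 CPM in other ECs, so that other ECs held more of it in every library but 3 d, where 77.5% of the 209 UMIs came from 1 cell, and its ratio of 78 w to 16 w rests on 5 UMIs at 16 w. Ly6a and Ly6c1, surface antigen genes counted in this list, were lower in Selp+ ECs in all 5 libraries, at 404 to 847 CPM against 532 to 2366 CPM for Ly6c1. The 78 w members also had more Selp than those of 16 w, a median of 13 UMIs against 5.5, and the part of this in the result was not tested.

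Other genes higher at 78 w were Cd274, an immune checkpoint ligand gene, at 16.4 and 86.7 CPM with a ratio of 5.28 (95% interval 3.47 to 8.33), Olr1, an oxidized lipoprotein receptor gene, at 6.68 (95% interval 3.55 to 13.9) with 56.0% of its 84 UMIs at 78 w in 3 cells, Cxcl10 at 7.52 (95% interval 4.72 to 12.6) with 57.6% of its UMIs at 78 w in 3 cells, F830016B08Rik and Pik3r5. Krt16 was named by rank, but its 75 UMIs all came from 1 cell. Ptgs2 stood at 5.14, 106, 10.1, 125 and 112 CPM against 3.30, 3.94, 7.53, 24.7 and 10.8 CPM in other ECs; at 78 w 29 of the 246 members held it and the 3 highest cells gave 63.7% of its UMIs. Of 5 genes of MHC class II, Cd74 and H2-Eb1 were at least 2-fold higher at 78 w in Selp+ ECs and in other ECs. Lower at 78 w were Hspa12b, F5, Trp53i11, the Notch target Nrarp, 3222401L13Rik, Lrrk1 and Vegfc, a lymphangiogenic growth factor gene, at ratios of 0.321 to 0.410, and Nos2, for the single cell given above.

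**Figure D4:**
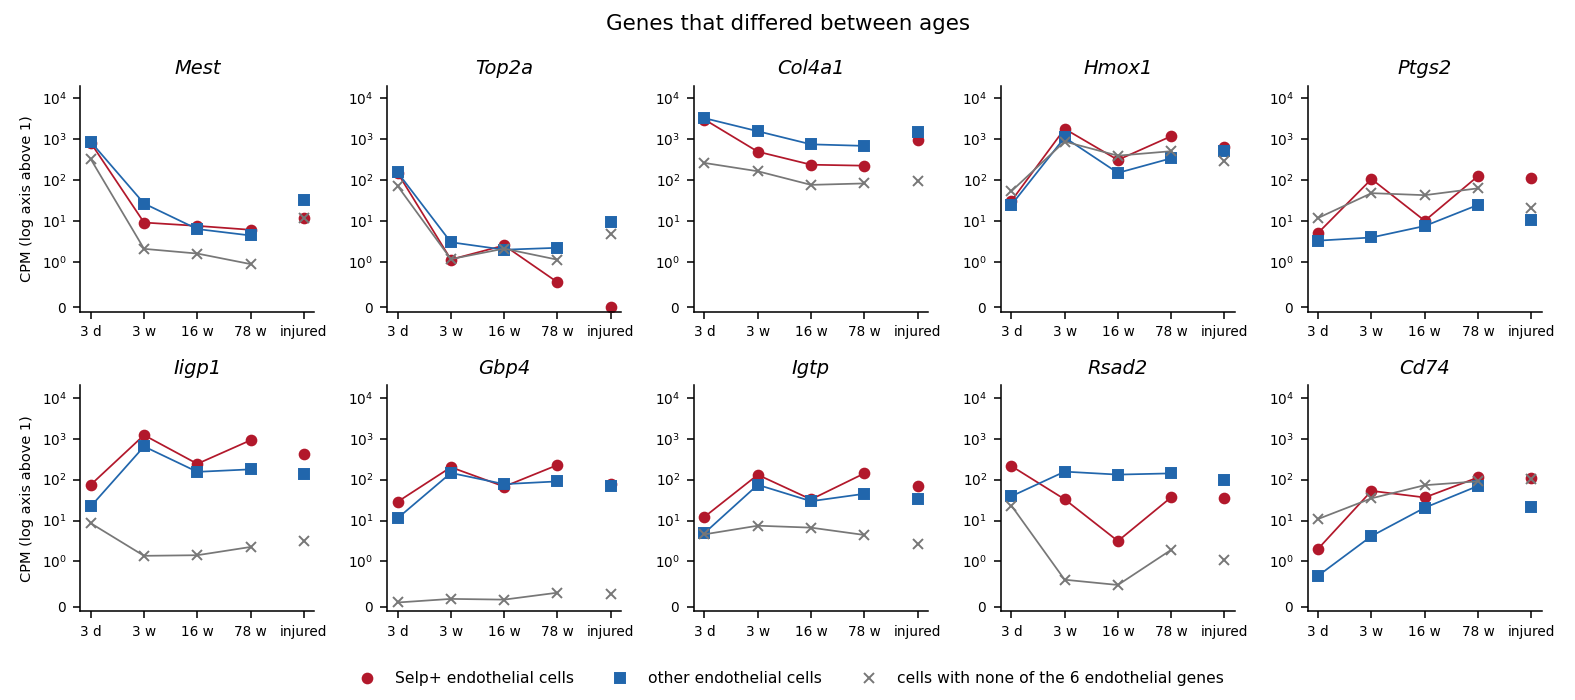
CPM (linear below 1, log above) of 10 genes in each library for Selp+ ECs (red circles), other ECs (blue squares) and cells with none of the 6 endothelial genes (grey crosses); lines join the 4 ages, points are single libraries and no error bars are drawn. Mest, Top2a and Col4a1 are highest at 3 d, and Iigp1, Gbp4 and Igtp in Selp+ ECs are lower at 16 w than at 3 w and 78 w.

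After injury the comparison was made with the normal ages on either side of 7 weeks, 3 w and 16 w, which share the injured library and are therefore not independent. Of 1056 genes with enough UMIs, 33 were at least 2-fold higher against both (3.12%) and 89 at least 2-fold lower against both (8.43%). Of these, 9 and 23 stood at least 2 times above the cells with none of the endothelial genes. The median ratio over all genes compared was 0.814 against 3 w and 0.887 against 16 w, and with ratios centred on these medians 62 genes were higher and 60 lower. Injury, age, the lower depth of the injured library, whose members had a median of 2501 UMIs, and any difference in genotype, tamoxifen treatment or sex of its mice cannot be told apart. The venular genes were mostly within 2-fold: of 18 venous and venular markers Nr2f2, the venous transcription factor gene, was higher, at 2.19 (95% interval 1.65 to 2.88) against 3 w and 2.52 (95% interval 1.88 to 3.33) against 16 w, and Lifr was lower. Nr2f2 had ratios of 3.08 and 2.31 in other ECs, and in cells with none of the endothelial genes it stood at 248 CPM after injury against 98.4 and 131. Sele was at 0.481 (95% interval 0.410 to 0.562) against 3 w and 1.24 (95% interval 1.05 to 1.46) against 16 w, so that it lay between the 2 ages. Vcam1 lay between them as well, and Ackr1 stood at its highest level of all libraries, 709.8 CPM.

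Among the genes at least 2 times above the cells with none of the endothelial genes, those with the largest ratios above both ages included Tmsb10 and Mctp1. Tmsb10, a thymosin gene, stood at 3555 CPM against 589 at 3 w and 862 at 16 w. Mctp1, one of the genes most like Selp, stood at 390.4 CPM against 139 and 119. For Tmsb10 the ratios in other ECs, 4.92 and 4.26, were of the same size. For Mctp1 they were 0.605 and 0.213, in the opposite direction, against 2.81 (95% interval 2.11 to 3.71) and 3.27 (95% interval 2.43 to 4.35) in Selp+ ECs. Hsph1, a heat shock protein gene, Btg1, Btg3, Tpm1 and Calcrl, the receptor gene for adrenomedullin and calcitonin gene-related peptide, were higher by 2.09- to 4.65-fold. In other ECs the ratios against 3 w and 16 w were 5.54 and 2.78 for Hsph1 and 1.97 and 3.27 for Btg1. They were 1.22 and 1.31 for Btg3, 1.34 and 1.62 for Tpm1 and 1.63 and 1.01 for Calcrl. Hsph1 stood at 189 CPM in cells with none of the endothelial genes, against 67.4 and 136 CPM.

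Genes lower after injury and at least 2 times above the cells with none of the endothelial genes included Irf1, Fmo2 and Pim3. Irf1, an interferon regulatory factor gene, stood at 29.6 CPM against 359 at 3 w and 415 at 16 w. Fmo2 stood at 59.2 CPM against 696 and 632, and the kinase gene Pim3 at 101 CPM against 839 and 828. In other ECs the ratios of Irf1, Fmo2 and Pim3 against 3 w, 0.252, 0.213 and 0.178, were also below 0.5. Tagln, a smooth muscle and mural gene, Sdpr, a caveolar gene, Plcb4 and Dock9 were lower by 3.34- to 8.65-fold. In other ECs the ratios against 3 w and 16 w were 0.649 and 0.522 for Tagln and 0.427 and 0.338 for Sdpr. They were 0.275 and 0.274 for Plcb4 and 0.575 and 0.400 for Dock9. Of 19 immediate early and stress genes 10 were at least 2-fold lower against both ages and none higher, with a median ratio of 0.495; they were Fos, Jun, Junb, Egr1, Atf3, Ier2, Btg2, Dusp1, Socs3 and Zfp36. Such genes respond to tissue dissociation, and cells with none of the endothelial genes had medians of 0.853 against 3 w and 0.459 against 16 w for the same list; the part of handling in the result was not tested. Other ECs had 7 of the 19 lower against each age, beside 195 of all 1269 genes compared against 3 w and 148 of 1231 against 16 w. Of 6 basement membrane genes none was at least 2-fold higher or lower against both ages, with a median ratio of 1.77; Col4a1 came nearest, at 1.94 (95% interval 1.63 to 2.30) against 3 w and 4.05 (95% interval 3.34 to 4.88) against 16 w.

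**Figure D5:**
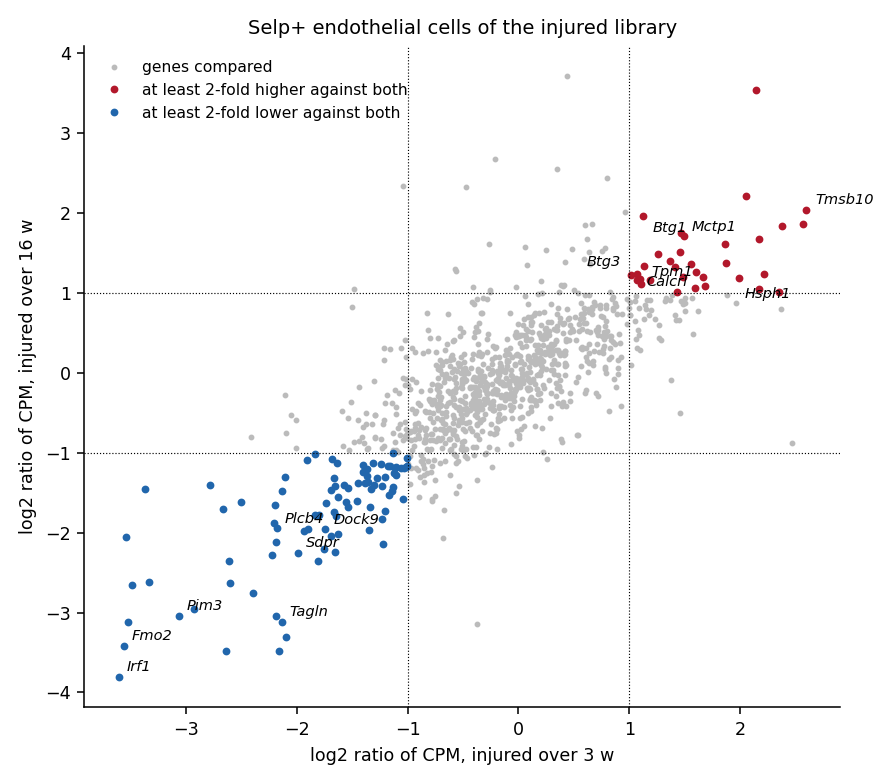
Log2 ratio of CPM in Selp+ ECs of the injured library over those of 3 w (horizontal axis) and of 16 w (vertical axis); each point is 1 of 1056 genes, red and blue mark genes at least 2-fold higher or lower against both, and dotted lines mark 2-fold. Tmsb10 lies at the upper right and Irf1, Fmo2 and Pim3 at the lower left; the axes share the injured library, so the diagonal trend is built in.

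Markers of other cells were measured in the members because droplets take up free RNA and can hold 2 cells. The 12 stromal markers summed to 8348, 18001, 16639.9, 13634 and 14859 CPM in Selp+ ECs, 10309, 17437, 15200.1, 12615 and 18571 CPM in other ECs and 30685, 69658, 54754, 60077 and 64042 CPM in cells with none of the endothelial genes, with Dcn or a collagen the most abundant. Both classes of ECs thus carried stromal RNA to a like extent. The 10 mural markers summed to 145, 412, 699, 821 and 296 CPM in Selp+ ECs and 211, 894, 589, 177 and 705 CPM in other ECs, so that the sum was higher in Selp+ ECs at 16 w and 78 w and lower in the other libraries. Tagln, the most abundant of them in Selp+ ECs at all ages, stood at 54.4, 311, 614, 689 and 71.0 CPM against 39.6, 159.6, 198, 67.1 and 104 CPM, and at 78 w 145 of the 246 members held it, no cell with more than 6.97% of its UMIs. Rgs5, the leading pericyte gene, stood at 19.5, 4.00, 2.53, 37.6 and 47.3 CPM against 59.0, 456, 185, 28.7 and 402 CPM in other ECs. The 9 platelet markers, relevant because platelets also store P-selectin, summed to 26.7, 12.6, 15.8, 16.6 and 11.8 CPM, with Pf4 at 13.4, 2.29, 0.632, 0.552 and 0 CPM. The 14 leukocyte markers summed to 25.7, 26.3, 17.7, 48.1 and 76.9 CPM and the 6 erythroid markers to 1502, 11.4, 7.58, 16.6 and 29.6 CPM, the 3 d value against 17535 CPM in cells without endothelial genes. The 8 lymphatic markers summed to 230.1, 65.7, 22.7, 40.3 and 41.4 CPM in Selp+ ECs and 316, 511, 49.1, 1983 and 375 CPM in other ECs, higher in other ECs in all 5 libraries; at 78 w Ccl21a stood at 0.552 against 1439 CPM. By cells, 2 or more of 5 lymphatic markers were seen in 5.33% of Selp+ ECs (4 cells) and 2.01% of other ECs (17 cells) at 3 d, and at 78 w in 0.407% and 4.19%.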

How the data were processed

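Filtered gene by barcode matrices of 5 libraries were used as deposited. Their values are whole UMI counts, which the authors made with Cell Ranger, version 4.0.0 by the file headers and 3.1 by the submitters' processing notes, against the mouse genome build mm10. Each matrix lists 27998 genes under 27933 symbols. No doublet caller was run; cells of high UMIs were left out in an alternative. The members, the 31 gene lists and the comparisons were chosen with earlier results of these data known.

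For each library, the counts of all cells in a class were added up and expressed as CPM. A gene was compared where its expected count reached 20, and it was called at a ratio of 2 or more, with a count under 3 per library set to 3 on the smaller side. Class calls needed 5 of 5 libraries. Named genes were the 15 with the ratio nearest to 1 that was largest in each direction between classes, the 8 for each age step and for injury among genes at least 2 times above the cells with none of the endothelial genes, and the 8 detected most like Selp; 2 genes among those after injury are not reported here. Intervals of ratios and shares are exact (95%). Thinning drew 1000 UMIs per cell. Ratios were checked on simulated counts. Python 3.11.15, numpy 2.4.6, scipy 1.17.1, pandas 2.3.3 and matplotlib 3.10.9 were used. Positions are from GENCODE M21 and promoters from RefSeq, without chromosome 18.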

Additional observations from a re-analysis of the deposited data

How the results depend on the processing

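Of the shares and counts of genes past 2-fold, 93 values under the alternatives stayed within their limit (the counting interval of a share, 1.5 times a count) and 39 moved; of the ratios of named genes 779 stayed, 66 moved and 1 reversed. With at least 2 Selp UMIs per member the shares were 3.59% at 3 d, 26.0% at 16 w and 15.9% after injury, and 371 genes were lower at 3 w than at 3 d. With cells thinned to 1000 UMIs the share was 2.94% in newborn, 24.0% in juvenile, 19.9% in adult and 29.3% in aged discs, 3 genes were lower in Selp+ ECs than in other ECs, 172 were higher and 59 lower at 3 w than at 3 d, 77 and 141 at 16 w than at 3 w, 31 and 14 at 78 w than at 16 w, and 15 and 40 after injury; fewer UMIs leave fewer genes to compare. Without cells of more than 2 times the median UMIs, 40 genes were higher in Selp+ ECs, 689 higher and 320 lower at 3 w than at 3 d, 21 were higher after injury, and Nos2 reversed, to a ratio of 0.903 at 16 w against 3 w. With equal weight per cell, which also dropped the floor of 3 UMIs, 34 genes were higher and 68 lower in Selp+ ECs, 845 were higher at 16 w than at 3 w and 163 lower at 78 w than at 16 w. With an expected count of at least 5, 1822 were higher and 2215 lower at 3 w than at 3 d, 1399 and 581 at 16 w than at 3 w, 314 and 607 at 78 w than at 16 w, and 110 and 443 after injury. Centred on the median ratio, 62 were higher after injury, and with a call in at least 4 of 5 libraries 73 were higher and 70 lower in Selp+ ECs. Leaving out each library in turn, an alternative chosen after seeing the data, gave 21 to 58 genes higher and 12 to 44 lower in Selp+ ECs, 58 and 44 without 3 d and 35 lower without the injured library. For counts without a construction given here, the cause was not tested. No paired analysis was possible because each condition has 1 library and no test was made. Depth limits the newborn and injured members most: 3 UMIs are 3.08 CPM at 3 d and 17.7 CPM after injury, against 1.71, 1.89 and 1.66 CPM in the other libraries, so low genes cannot be compared there.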

Other observations

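Other gene groups were measured in the same cells. Of 19 genes of Weibel-Palade body cargo and exocytosis, 1, Vwf, was at least 2-fold higher in Selp+ ECs in every library and the median ratio was 1.00, and of 15 coagulation and fibrinolysis genes it was again the 1 called, with a median of 1.17. Of 14 junction and permeability genes 1 was at least 2-fold lower in every library, Cgnl1, a paracingulin gene of junctions, at 22.6, 30.3, 36.6, 33.7 and 23.7 CPM against 52.8, 78.2, 89.5, 83.4 and 85.0 CPM. Of 17 endothelial transcription factors none was called and 7 were lower in direction in 5 of 5 libraries, with a median of 0.901.

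None of 13 BMP and TGF-beta pathway genes was called between the classes. After injury 2 of the 5 that could be compared, Id1 and Id3, were at least 2-fold lower against both ages in Selp+ ECs, beside 8.43% of all genes compared. Id1, a BMP target gene, stood at 373, 135, 243, 188 and 29.6 CPM against 528, 229, 717, 747 and 85.0 CPM in other ECs. Of 12 fatty acid handling genes none was called between the classes, and of 22 cell cycle genes none was called and the median ratio was 1.00. At 3 d 21 of these 22 were lower in Selp+ ECs, at a median of 0.770 beside 0.919 over all genes. In each other library the median was 1.00, which the floor of 3 UMIs also gives to genes with few UMIs. Of 9 VEGF and angiopoietin receptors, 13 MHC class I and 6 MHC class II genes none was called either, with medians of 0.868, 1.02 and 1.47. Of 24 interferon response genes none was called in all 5 libraries, and of 7 prostaglandin and nitric oxide enzymes none. The 5 Schwann cell markers summed to 8.22, 48.6, 24.0, 66.3 and 0 CPM in Selp+ ECs and the 8 skeletal muscle markers to 23.6, 5.71, 2.53, 13.8 and 0 CPM.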
